A study of Mus musculus with 6 samples.

Results

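Interferon receptors and Janus kinases were examined in regulatory T (Treg) cells that lacked the microRNA gene miR-142 and in Treg cells that kept it. The 8 genes were taken by symbol from a matrix of 24421 genes: the 4 receptor chains Ifngr1, Ifngr2, Ifnar1 and Ifnar2, and the 4 kinases Jak1, Jak2, Jak3 and Tyk2. All 8 were present and passed the filter on low counts. The 6 RNA-seq libraries came from CD4+YFP+ cells sorted from spleens of female C57BL/6 mice aged 8 to 11 weeks, 1 library per mouse and 3 mice per group. WT mice carried Foxp3Cre alone, and KO mice carried Foxp3Cre together with miR-142 fl/fl, a pair of loxP-flanked copies of the microRNA gene. Both groups therefore carried the Cre-YFP fusion that is expressed with Foxp3, the gene for the transcription factor that defines Treg cells, and in KO mice the deletion is aimed at Foxp3-expressing cells. Whether the Foxp3Cre allele was on one or both X chromosomes is not given in the sources used here. The comparison asks how transcripts of these genes differ between the Treg cells of KO and of WT mice. The authors report that KO mice develop a fatal systemic autoimmune disease, with more interferon gamma made by their CD4+ and CD8+ T cells. They caution that such inflammation could itself change gene expression in Treg cells. Loss of miR-142 within the cell and inflamed surroundings cannot be told apart between these groups.

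Interferons reach the cell through paired receptor chains that have no kinase of their own. Interferon gamma (IFNγ) binds Ifngr1, which docks Jak1, and Ifngr2, which docks Jak2, while the type I interferons bind Ifnar1, which docks Tyk2, and Ifnar2, which docks Jak1. The kinases phosphorylate STAT proteins, and Jak3 serves the cytokine receptors built on the common gamma chain, among them the interleukin-2 receptor on which Treg cells depend.

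The deleted gene gives a pair of mature microRNAs from the arms of its hairpin. They are shown because their seed, the stretch that pairs with messenger RNA, sets which 3′ UTR matches were looked for, and capitals mark the seed (bases 2 to 8). Mature sequences are from RefSeq (GRCm38.p6, plus strand, chr11:87756903-87756925 for the 3p arm and chr11:87756867-87756887 for the 5p arm). For the 3p arm a seed shifted by 1 base (bases 3 to 9) was read as well.
miR-142-3p: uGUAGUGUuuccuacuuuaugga
miR-142-3p, shifted seed: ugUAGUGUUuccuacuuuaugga
miR-142-5p: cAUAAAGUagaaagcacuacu

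The longest annotated 3′ UTR of each member was searched, in the direction of the transcript, for the 7-base complements of these seeds and for 6 of those bases followed by A. The motifs were ACACTAC and CACTACA, which overlap, AACACTA and ACACTAA, which overlap, and, for the 5p arm, ACTTTAT and CTTTATA. Matches to the 3p arm were found in 2 of the 8 members, Ifngr2 and Ifnar1, and a match to the 5p arm in 1, Jak1. They are shown with 10 bases on each side, with the match in capitals.
Ifngr2, chr16:91563206-91563212, plus strand, exon 7: gcttctcttaAACACTAaaaagacaac
Ifnar1, chr16:91506323-91506329, plus strand, exon 11: cacacaagagACACTACacaaattacg
Ifnar1, chr16:91505722-91505728, plus strand, exon 11: gagaaaggggACACTAActggaggagc
Jak1, chr4:101152390-101152396, minus strand, exon 25: tttgtttactCTTTATAcaataaacat

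In the first 2 windows the base after the capitals is an A, so the overlapping motif, ACACTAA in Ifngr2 and CACTACA in Ifnar1, was present at the same place. The longest 3′ UTRs of Ifngr1, Ifnar2, Jak2, Jak3 and Tyk2 held none of the 6 motifs. Another coding transcript of Ifnar2 held ACACTAA. Of the 10786 tested genes with an annotated 3′ UTR, 22.7% held at least 1 of the 4 motifs of the 3p arm and 23.5% at least 1 of those of the 5p arm. Single motifs were held by 7.08% (ACACTAC), 8.77% (CACTACA), 10.3% (AACACTA), 10.1% (ACACTAA), 15.9% (ACTTTAT) and 15.3% (CTTTATA). Longer 3′ UTRs offer more places for a match. Those of the members ran from 419 bases in Jak3 and 541 in Ifngr1 to 2030 in Ifnar1 and 2618 in Ifngr2, against a median of 1186 bases. These matches are descriptions of the sequence, and no assay of binding was used here.

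The libraries held between 13883069 and 24042994 counts, and the members had between 893 and 32403 counts in each. Mir142b, annotated over the targeted gene on the other strand, which counting without strand cannot separate, had 147, 101 and 105 counts in the WT libraries and 7, 5 and 5 in the KO libraries. The 6 Treg marker genes, Foxp3, Il2ra, Ctla4, Ikzf2, Cd4 and Cd3e, were all above 1 CPM (counts scaled to library size) in every WT library. KO replicate 1 stood apart in markers of other cells. The summed CPM of 9 neutrophil genes was 799 there, against at most 1.36 in the WT and 39.9 in the other KO libraries, with 8 of the 9 highest in KO replicate 1 and S100a8, Cxcr2 and Retnlg at 0 in all WT libraries. That of 11 monocyte and macrophage genes was 2686, against at most 13.6 and 73.3, with all 11 highest in KO replicate 1. Summed values for 7 B cell genes, all highest there, were 265, against at most 43.1 and 12.7, and for 6 CD8 and NK cell genes, of which 5 were highest there, 62.0, against at most 24.6 and 22.3. The 6 erythroid genes, of which 2 were highest there, summed to 11.6 CPM there and to at most 1.73 elsewhere. In KO replicates 2 and 3 the neutrophil sums (7.35 and 39.9 CPM) and the monocyte and macrophage sums (73.3 and 19.8 CPM) were above every WT library too. Their erythroid sums were also above, their B cell sums were below every WT library, and their CD8 and NK sums were not above. Many of these cells express interferon receptors and kinases too, so each member's fold change is given below also without KO replicate 1. Such a fit still holds the transcripts of other cells in the remaining KO libraries. The part these transcripts had in the members' values was not tested.

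Of the 4 receptor chains, 3 rose in KO Treg cells and 0 fell, and of the 4 kinases none changed past the threshold in either direction. The threshold was a false discovery rate (FDR) under 0.05 in edgeR's quasi-likelihood F (QLF) test with Benjamini-Hochberg adjustment over all 11658 tested genes, of which 18.8% were called, 11.6% as higher and 7.27% as lower. Higher calls were 61.4% of all calls, or 47.0% with scaling by library size alone. Of the 4 kinases, 0 had an unadjusted QLF p under 0.05 and 0 were called by DESeq2. The median log2 fold change was 0.47 over the receptors and -0.02 over the kinases, beside 0.02 over all tested genes. With so few members the counts are descriptions, and at an FDR under 0.01 the number called was 0. Without KO replicate 1 the number called was 2, Ifngr1 and Ifnar1. In 4 members, Ifngr1, Ifngr2, Ifnar1 and Jak2, every KO library was above every WT library, as in 22.2% of all tested genes. Levels below are TMM-normalized CPM, that is, counts scaled to library size after a correction for composition, and in sorted bulk cells more cells of a type and more RNA per cell cannot be told apart. Where separate mice were 3 against 3, an exact permutation test cannot give a two-sided p below 0.1, so calls for a member come from the fit over all genes.

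**Figure D1:**
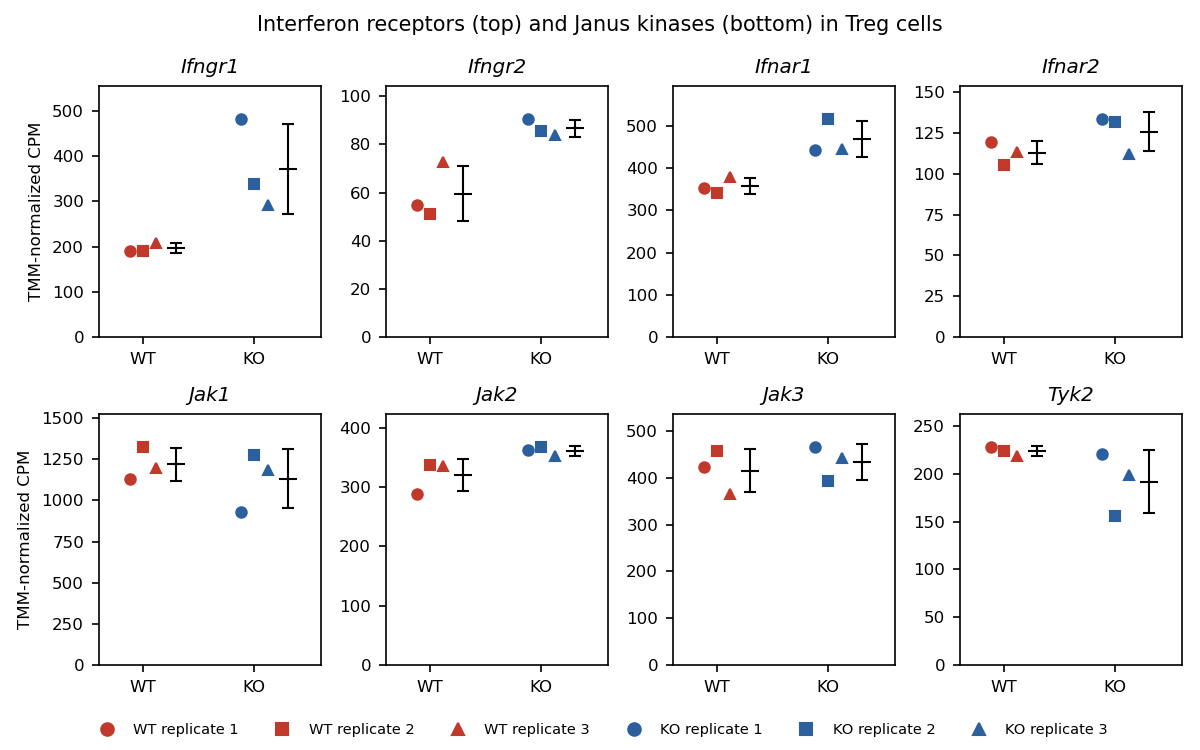
TMM-normalized CPM (vertical axes, from 0, each panel with its own scale) of the 4 receptor chains and the 4 kinases in 3 WT (red) and 3 KO (blue) libraries, with symbols for the replicate number and black bars for the mean ± SD. All KO libraries lie above all WT libraries for Ifngr1, Ifngr2, Ifnar1 and Jak2, and the groups overlap for the other 4 genes.

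Ifngr1, the ligand-binding chain of the IFNγ receptor (chr10:19591949-19610229, plus strand, GRCm38), had 189.6, 189.9 and 209 CPM in the WT libraries (replicates 1, 2 and 3, in this order here and below) and 482, 339 and 292 CPM in the KO libraries. The groups did not overlap, and KO replicate 1, the library with the highest summed markers of other cells, was the highest. Mean levels were 196 ± 11 CPM for WT and 371 ± 99.0 CPM for KO libraries (± SD here and below, n = 3 in each group). The log2 fold change was 0.92 (SE 0.18, 95% CI 0.50 to 1.34, FDR = 0.0152 in the QLF test), a 1.89-fold rise. Without KO replicate 1 it was 0.67 (FDR = 0.00519). The call was lost without WT replicate 1 (0.87, FDR = 0.0654), WT replicate 2 (0.89, FDR = 0.0731) or WT replicate 3 (0.96, FDR = 0.0547), settings in which between 5.98% and 8.87% of all genes were called. Over the 10 other settings that kept all libraries the FDR ranged from 1.78e-05 to 0.0231.

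Ifngr2, the accessory chain that brings Jak2 to the IFNγ receptor (chr16:91547072-91565623, plus strand), had 55.0, 51.1 and 72.7 CPM in the WT libraries and 90.6, 85.6 and 83.9 CPM in the KO libraries. The 3 KO libraries lay close together and above every WT library, of which replicate 3 was the highest. Mean levels were 59.6 ± 11.5 CPM for WT and 86.7 ± 3.50 CPM for KO libraries, and the log2 fold change was 0.54 (SE 0.14, 95% CI 0.22 to 0.87, FDR = 0.0361 in the QLF test). Of the settings that each left out 1 library, the call held only without WT replicate 3 (0.71, FDR = 0.0192). It was lost without WT replicate 1 (0.46, FDR = 0.125), WT replicate 2 (0.44, FDR = 0.132), KO replicate 1 (0.49, FDR = 0.0568), KO replicate 2 (0.56, FDR = 0.0538) or KO replicate 3 (0.55, FDR = 0.0733). It also missed the threshold with scaling by library size alone (0.46, FDR = 0.0527) and without a filter on low counts (0.52, FDR = 0.0541), and the FDR over the 10 settings that kept all libraries ranged from 0.00619 to 0.0541.

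Ifnar1, the chain of the type I interferon receptor that docks Tyk2 (chr16:91485238-91507441, plus strand), had 354, 341 and 378 CPM in the WT libraries and 444, 517 and 447 CPM in the KO libraries. Every KO library was above every WT library, and the highest was KO replicate 2, not KO replicate 1. Mean levels were 358 ± 19.0 CPM for WT and 469 ± 41.5 CPM for KO libraries, and the log2 fold change was 0.39 (SE 0.10, 95% CI 0.16 to 0.62, FDR = 0.0334 in the QLF test). It was called without KO replicate 1 (0.41, FDR = 0.0364) and without KO replicate 2 (0.32, FDR = 0.0433). It was lost without WT replicate 1 (0.36, FDR = 0.115), WT replicate 2 (0.35, FDR = 0.144), WT replicate 3 (0.43, FDR = 0.0859) or KO replicate 3 (0.41, FDR = 0.064). The FDR over the 10 settings that kept all libraries ranged from 0.00214 to 0.0752. It was called in 7 of these and missed the threshold with library size alone (0.31, FDR = 0.0541), with no filter (0.37, FDR = 0.0608) and with a replicate block (0.39, FDR = 0.0752).

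Ifnar2, the chain of the type I receptor that docks Jak1 and also has a soluble form (chr16:91372783-91405589, plus strand), had 119, 105 and 113 CPM in the WT libraries and 134, 132 and 112 CPM in the KO libraries. KO replicate 3 lay within the range of the WT libraries. The log2 fold change was 0.16 (SE 0.10, 95% CI -0.08 to 0.39, FDR = 0.302 in the QLF test), an interval that holds both no change and a rise as large as that fitted for Ifnar1. It was 0.10 without KO replicate 1 (FDR = 0.586). The FDR stayed above the threshold in all 16 other settings, of which 6 left out a library. Its exons share 315 bases with Gm21970, not analysed here.

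Ifnar2, Ifnar1 and Ifngr2 lie in this order within 193 kb of chromosome 16 on the same strand. Il10rb, the receptor chain shared by interleukin-10 and the lambda interferons, lies between Ifnar2 and Ifnar1 with mean levels of 98.3 ± 10.2 CPM for WT and 132 ± 23.2 CPM for KO libraries. Its groups did not overlap, and the fitted log2 difference was 0.43 (SE 0.15, FDR = 0.0796 in the QLF test). KO replicate 1 was its highest library, and the difference was 0.28 without it (FDR = 0.161). It was 0.56 without KO replicate 2, where it was called (FDR = 0.0234), and the other fits that left out 1 library did not call it. The noncoding A930006K02Rik, the other gene of the interval that was tested, was at 5.98 CPM in WT, with a fitted log2 difference of -0.68 (SE 0.34, FDR = 0.204). Ifngr1, the receptor chain with the highest fold change, is on another chromosome.

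Jak1, the kinase shared by both interferon receptors (chr4:101152367-101265282, minus strand), had 1133, 1328 and 1197 CPM in the WT libraries and 931, 1277 and 1187 CPM in the KO libraries. KO replicate 1 was the lowest library, and the other KO libraries lay among the WT libraries. The log2 fold change was -0.11 (SE 0.14, 95% CI -0.44 to 0.22, FDR = 0.627 in the QLF test). Without KO replicate 1 it was -0.0014 (FDR = 0.995).

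Jak2, the kinase of Ifngr2 (chr19:29251828-29313080, plus strand), had 288, 337 and 336 CPM in the WT libraries and 363, 368 and 352 CPM in the KO libraries. Its groups did not overlap, as for 41% of all tested genes, but the lowest KO library was only slightly above the highest WT library. The log2 fold change was 0.17 (SE 0.09, 95% CI -0.04 to 0.39, FDR = 0.228 in the QLF test). It was 0.15 without KO replicate 1 (FDR = 0.375). The 95% interval lies below a rise of the size fitted for Ifngr1 or Ifngr2.

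Jak3, the kinase docked to the common gamma chain (chr8:71676296-71690575, plus strand), had 424, 457 and 366 CPM in the WT libraries and 467, 393 and 443 CPM in the KO libraries. The groups overlapped over most of their range. The log2 fold change was 0.06 (SE 0.12, 95% CI -0.21 to 0.33, FDR = 0.734 in the QLF test). Its sign turned without KO replicate 1 (-0.0093), without WT replicate 3 (-0.02) and with scaling by library size alone (-0.01), so no direction is given. Its annotated exons share 404 bases with Insl3, which had 397 counts in all libraries together.

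Tyk2, the kinase of Ifnar1 (chr9:21104068-21131243, minus strand), had 229, 224 and 219 CPM in the WT libraries and 221, 156 and 199 CPM in the KO libraries. KO replicate 2, which had the highest Ifnar1 level, had the lowest Tyk2 level, and KO replicate 1 lay within the WT range. The log2 fold change was -0.22 (SE 0.13, 95% CI -0.53 to 0.08, FDR = 0.271 in the QLF test). Leaving out KO replicate 1 gave -0.35 (FDR = 0.0849), and leaving out KO replicate 2 gave -0.09. Its exons share 554 bases with 1700084C06Rik on the other strand, not analysed here, and counting without strand cannot tell their reads apart.

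**Figure D2:**
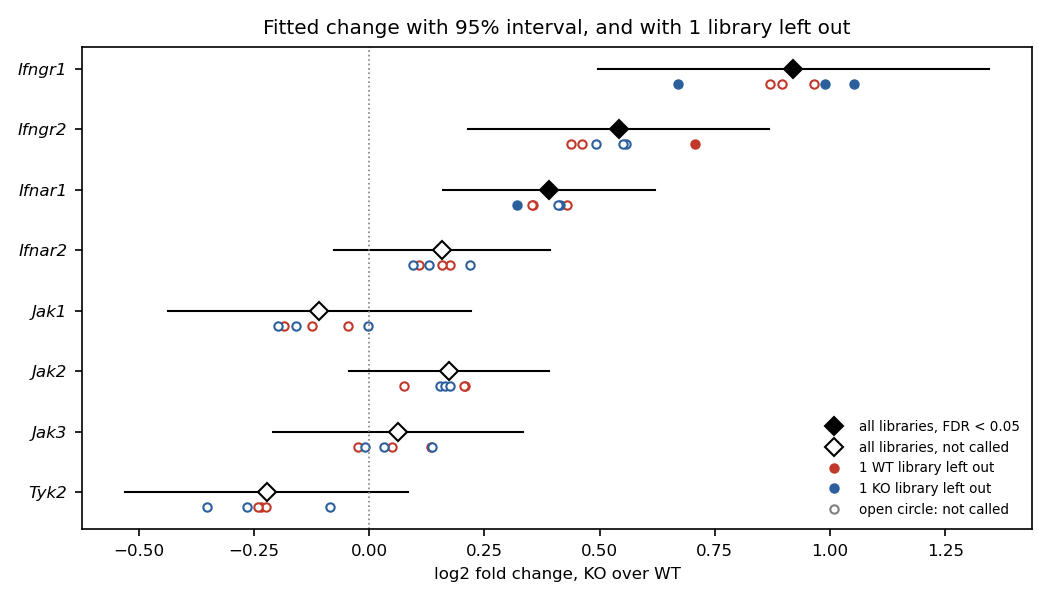
Fitted log2 fold changes, KO over WT (horizontal axis), of the 8 genes, with diamonds and lines for the estimate and 95% interval from all 6 libraries and circles for estimates with 1 WT (red) or 1 KO (blue) library left out. Filled symbols had an FDR under 0.05. The filled diamonds are Ifngr1 (0.92), Ifngr2 (0.54) and Ifnar1 (0.39), and every Ifngr1 circle lies between 0.67 and 1.05.

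Levels per kilobase of exon allow different genes to be set beside each other. By the group mean, Jak1 transcripts were the most abundant of the 8 and Ifngr2 transcripts the least, in both WT and KO Treg cells. In WT Treg cells the mean levels in CPM per kilobase were 169 for Jak1, 77.7 for Jak3, 68.9 for Ifngr1, 63.7 for Jak2, 60.2 for Ifnar1, 33.9 for Ifnar2, 32.7 for Tyk2 and 15.8 for Ifngr2. The ranges of neighbours overlapped from Jak3 down to Ifnar1 and between Ifnar2 and Tyk2, so only Jak1, these 2 groups of neighbours and Ifngr2 were set apart. With the length of the longest transcript in place of all exons, Jak2 and Ifnar1 traded places, as did Ifnar2 and Tyk2. The annotation behind the authors' counts is not given in the sources used here, and these levels rest on GENCODE vM21 lengths.

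In KO Treg cells Ifngr1 held the second place, at 130 ± 34.8 CPM per kilobase (SD, n = 3), with a lowest library of 103 that was above the highest Jak3 library of 87.3. In KO replicate 1 the Ifngr1 level of 169 CPM per kilobase was above that of Jak1, at 129. In KO replicates 2 and 3 Jak1 was above Ifngr1. Neighbours whose KO ranges overlapped were Jak1 and Ifngr1, Jak3 and Ifnar1, and Tyk2 and Ifngr2. The 4 receptor chains summed to 179 ± 10.7 CPM per kilobase in WT and 270 ± 37.3 in KO, and the 4 kinases to 343 ± 22.8 and 338 ± 14.8 (± SD, n = 3). The receptor sums lay between 234 and 308 in KO and between 169 and 190.4 in WT libraries, and the kinase sums overlapped. Ifngr1 made up 38.5% ± 0.847 of the receptor sum in WT and 47.7% ± 6.24 in KO (54.9% in KO replicate 1 and at least 43.9% in the others), and Ifnar2 made up 19.0% ± 1.24 and 14.1% ± 0.909 (± SD, n = 3). Ifngr2 made up 8.81% ± 1.16 in WT and 8.60% ± 0.870 in KO.

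**Figure D3:**
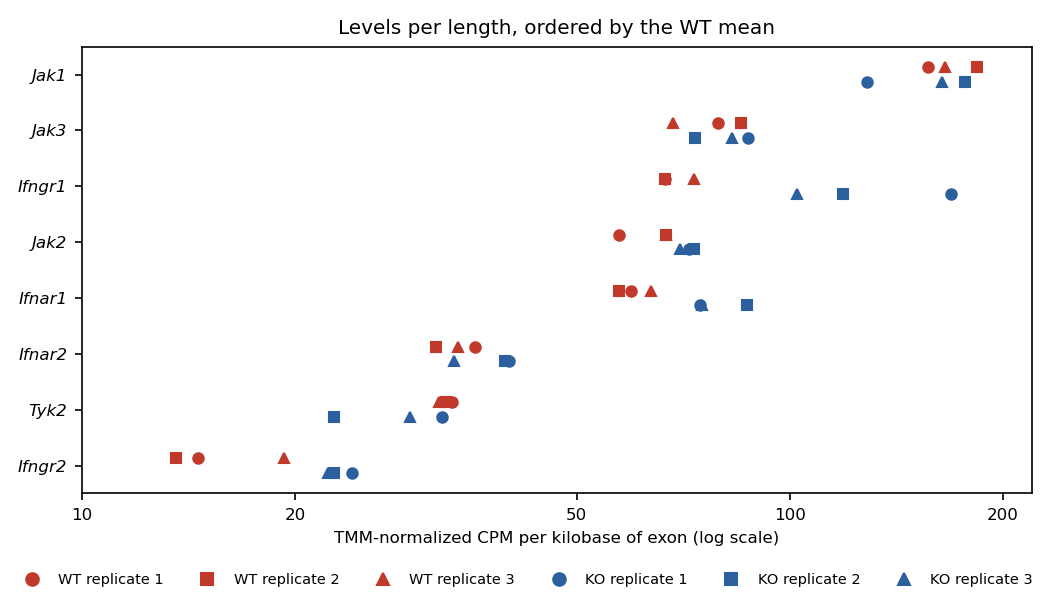
TMM-normalized CPM per kilobase of exon (horizontal axis, log scale) of the 8 genes in each WT (red) and KO (blue) library, ordered by the WT mean. Jak1 lies at the top and Ifngr2 at the bottom, and the KO libraries of Ifngr1, from 103 to 169, lie beyond all libraries of Jak3, Jak2 and Ifnar1.

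Ratios of members within a library do not depend on how libraries are scaled to each other. Of 10 ratios compared, 5 did not overlap between the groups, each with an exact two-sided permutation p of 0.1, the smallest that 3 against 3 libraries can give, and a Benjamini-Hochberg adjusted p of 0.2 over the 10. The 5 were Ifngr1 to Ifnar1, Jak2 to Jak1, and each of 3 receptor chains to its docked kinase. In each of the 5 the first-named gene did not overlap between the groups by itself, as for 41% of all tested genes. The share of non-overlapping ratios among other genes was not computed, so the count is a description. Ratios of receptor chains to docked kinases were chosen after the members' values had been seen. None passed a threshold of 0.05, which this design cannot reach.

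The log2 ratio of Ifngr1 to Jak1, per kilobase, was -1.24, -1.46 and -1.17 in the WT libraries and 0.39, -0.57 and -0.68 in the KO libraries. Only KO replicate 1 had more Ifngr1 than Jak1. The difference of the means was 1.01 (SE 0.35), a 2.01-fold higher ratio, and with 1 library left out at a time it ranged from 0.67, without KO replicate 1, to 1.20. The ratio of Ifngr2 to Jak2 was -1.97, -2.30 and -1.79 in WT and -1.59, -1.69 and -1.65 in KO libraries, a difference of 0.38 (SE 0.15), or 0.24 without WT replicate 2. That of Ifnar1 to Tyk2 was 0.84, 0.81 and 1.0 in WT and 1.21, 1.94 and 1.37 in KO, a difference of 0.63 (SE 0.23). KO replicate 2 was the highest for this pair, and without it the difference was 0.41.

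The fourth pair, Ifnar2 to Jak1, overlapped between the groups, with a difference of 0.27 (SE 0.22, exact permutation p = 0.5). The chains of one receptor were compared as well. Ifngr2 to Ifngr1 differed by -0.33 (SE 0.21) and Ifnar2 to Ifnar1 by -0.23 (SE 0.10), each with overlapping groups and an exact permutation p of 0.2. The ratio of Ifngr1 to Ifnar1 was 0.16, 0.22 and 0.20 in WT and 1.18, 0.45 and 0.45 in KO libraries. The difference was 0.50 (SE 0.24), and without KO replicate 1 it was 0.26. Among kinases, Jak2 to Jak1 differed by 0.29 (SE 0.15), or by 0.16 without KO replicate 1. Jak3 to Jak1 (0.18, SE 0.22, exact permutation p = 0.5) and Tyk2 to Jak1 (-0.12, SE 0.29, exact permutation p = 0.7) overlapped.

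**Figure D4:**
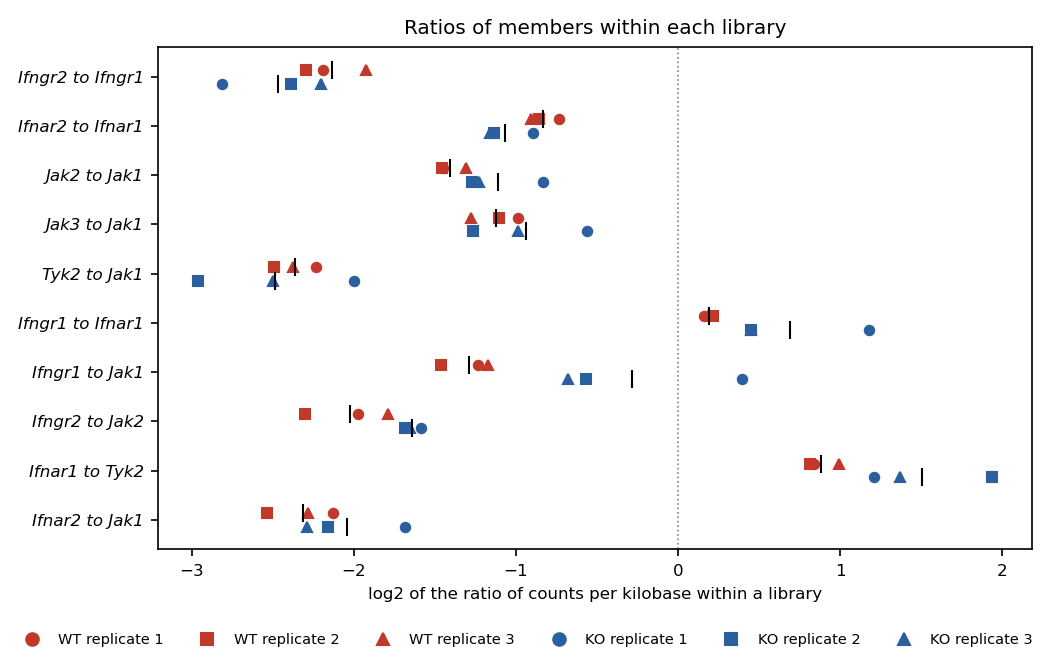
Log2 ratios of counts per kilobase within each library (horizontal axis) for 10 pairs of members in WT (red) and KO (blue) libraries, with symbols for the replicate number and black ticks for group means. For Ifngr1 to Jak1 the WT libraries lie between -1.46 and -1.17 and the KO libraries between -0.68 and 0.39, and the KO libraries are also to the right of all WT libraries for Ifngr2 to Jak2, Ifnar1 to Tyk2, Ifngr1 to Ifnar1 and Jak2 to Jak1.

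The genes around the members were read from lists by role. Over all lists, 26 of 80 tested genes were called higher and 4 lower (32.5% and 5%, beside 11.6% and 7.27% of all tested genes). The median log2 fold change over the lists was 0.29. Without KO replicate 1 the counts were 26 and 9, and without WT replicate 2 they were 15 and 2. Of all tested genes, 17.3% were called without KO replicate 1 and 5.98% without WT replicate 2, against 18.8% with all libraries. Of the ligands of these and related receptors, 6 of 20 passed the filter. Ifng, the ligand of Ifngr1 and Ifngr2, overlapped between the groups, at 5.85, 13 and 24.6 CPM in the WT libraries and 15.0, 5.68 and 4.38 CPM in the KO libraries (log2 fold change -0.78, SE 0.61, FDR = 0.402 in the QLF test). Ifnb1, Ifna1, Ifna2, Ifna4 and Ifna5, which bind Ifnar1 and Ifnar2, had 0 counts in all 6 libraries, which allows up to between 0.125 and 0.216 CPM by counting error alone. Il4 rose by a log2 fold change of 1.39 (1.90 CPM in WT) and was called with any 1 library left out. Il7 was called as well, but at 0.325 CPM in WT it passed the filter only through the KO libraries, where it was higher, so its call is not independent of the filter. It missed the threshold without WT replicate 2 or WT replicate 3 and was not tested without any 1 of the KO libraries. Il21, not called with all libraries (-1.72, FDR = 0.112), was called lower without KO replicate 1 (-3.08, FDR = 0.00565). Of the KO libraries only replicate 1 had Il21 above 1 CPM. Without that library Il21 passed the filter only through the WT libraries, where it was higher, so this call is not independent of the filter.

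Downstream of the kinases, 2 of 8 genes of the list of STAT proteins and Irf9 were called higher and 1 lower, with a median of -0.14. These were 25% and 12.5% of the list, beside 11.6% and 7.27% of all tested genes. Stat3, which transmits interleukin-6 and interleukin-10 signals, rose by 0.36 and Stat4, a mediator of interleukin-12 signals, fell by 0.67 on the log2 scale. Without KO replicate 1 or KO replicate 2 the number called higher was 2, and without WT replicate 1, WT replicate 2, WT replicate 3 or KO replicate 3 it was 0. Stat2 and Irf9, which act downstream of Ifnar1 and Ifnar2, had log2 fold changes of -0.10 and -0.17 with an FDR of 0.649 and 0.169.

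Among 13 tested receptor chains of other cytokines that dock the same kinases, 6 were called higher and 1 lower, with a median of 0.43. These were 46.2% and 7.69% of the list, beside 11.6% and 7.27% of all tested genes. Il2rb, the signalling chain of the interleukin-2 receptor, which docks Jak1, rose from 1029 ± 16.6 to 2098 ± 3.74 CPM (n = 3 in each group), or by 1.03 on the log2 scale (SE 0.09, FDR = 0.000996 in the QLF test). Il10ra rose by 0.95, Il12rb1 by 1.49 and Il4ra by 0.43, and Il6ra fell by 1.38 on the log2 scale. The number higher was 8 without KO replicate 1, and 3 without WT replicate 1 or WT replicate 2, and 4 without WT replicate 3. Among 20 tested inhibitors of these pathways, 5 were called higher and 2 lower (25% and 10%), with a median of 0.02. Socs2 (2.53), Socs3 (1.07) and Cish (1.0), feedback inhibitors induced by cytokine signals, and the phosphatase Ptpn1 (0.69) rose on the log2 scale. Cbl, a ubiquitin ligase, fell by 0.50, and Usp18, which restrains signalling at Ifnar2, fell by 0.56. Between 4 and 5 inhibitors were called higher with any 1 library left out, and the number called lower was 1 without WT replicate 1, 3 without KO replicate 2, and 0 without WT replicate 2, WT replicate 3 or KO replicate 3.

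Genes known to be induced through each receptor were read from separate lists, and the difference between the lists was not tested. Of 15 tested IFNγ targets, 10 were called higher (66.7%, beside 11.6% of all tested genes) and 0 lower, with a median of 1.01. One of the 10, Ciita, passed the filter only with the KO libraries, where it was higher. The guanylate-binding protein genes Gbp3 (1.87), Gbp4 (1.04) and Gbp2 (2.02) and the immunoproteasome gene Psmb8 (1.0) led by p-value, each with an FDR of 0.00369 or less in the QLF test. The number higher was 10 without KO replicate 1, with a median of 0.84, and 6 without WT replicate 2. Of 18 tested type I targets, 1 was called higher and 1 lower (5.56% each), with a median of 0.09. The higher was the exonuclease gene Isg20 (0.98), and the lower was Usp18, which is also on the list of inhibitors. In this list KO replicate 1 moved the result, since without it 5 genes were called lower and 1 higher, and the median was -0.37. Without KO replicate 3 or any 1 of the WT libraries 0 were called lower. Targets of both kinds share regulators, and many type I targets respond to IFNγ too.

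**Figure D5:**
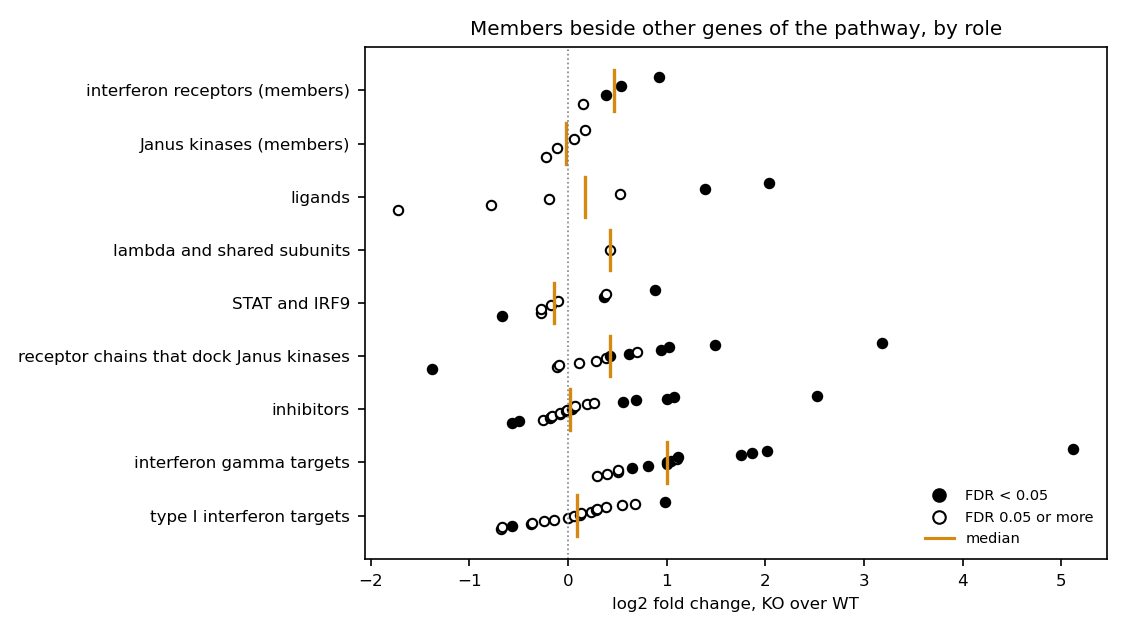
Log2 fold changes, KO over WT (horizontal axis), of the 8 members and of the tested genes of each list by role, with filled circles for an FDR under 0.05 and orange bars for medians. The medians are 0.47 for the interferon receptors and -0.02 for the Janus kinases, 1.01 for IFNγ targets and 0.09 for type I interferon targets.

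For each receptor chain that was called, the 3 tested genes whose log2 CPM followed it most closely over the 6 libraries were read as a description. Ifngr1 was followed by Apobec1 (Pearson r = 0.996), Itpr1 (0.996) and Dusp16 (0.994), Ifngr2 by Lrrc32 (0.993), Cradd (0.988) and Bag3 (0.987), and Ifnar1 by Birc3 (0.996), Fam117a (0.992) and Chchd7 (0.992). All 9 genes had fitted log2 fold changes above 0, between 0.34 and 1.21, so the difference between WT and KO libraries is part of each correlation. These were the highest of 11658 genes over 6 libraries. The 3 lists held no gene in common.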

How the data were processed

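The data were RNA-seq libraries, 1 per mouse, of sorted spleen Treg cells from 3 WT and 3 KO mice. The authors mapped 51-base single-end reads to mm10 with HISAT, counted them per gene by featureCounts with no use of strand, and deposited the counts unnormalized. The submitters' processing notes name CASAVA, HISAT and edgeR. The annotation used for counting is not given in the sources used here. All sample columns were used, and total counts ran from 13883069 to 24042994. Replicates were separate mice, and pairs of libraries of one group differed by more than counting noise.

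A gene was tested if at least 3 libraries had a CPM above 1 (11658 genes). The main test was the QLF test of edgeR 4.0.16 (R 4.3.3) on TMM-normalized counts, with Benjamini-Hochberg adjustment. Alternatives were RLE and library-size scaling, DESeq2 1.42.0, the likelihood ratio and exact tests of edgeR, the newer quasi-dispersion, robust estimation, other filters, an FDR of 0.01, a block on replicate number and leaving out each library. The steps were tested on simulated data. Correlations used log2 CPM with a prior count of 2. Exon lengths and 3′ UTRs came from GENCODE vM21 (GRCm38, the build that mm10 names). All 8 members were matched by symbol.

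The members and all lists were chosen with earlier results of these data known. Named genes were the members, checks of the labels, up to 4 called genes per list and direction by smallest p, the 3 genes most correlated with each called member, and tested neighbours or overlapping genes. The values of some single genes that the rule would name are left out here. Ifng, Il21, Ifnb1, the Ifna genes, Ciita, Stat2 and Irf9 were named after their values were seen. Seed matches followed by A were added after seeing the data. The floor for a gene with 0 counts was 3 counts and covers counting error only.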

Additional observations from a re-analysis of the deposited data

How the results depend on the processing

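The members' directions were the same under every alternative but for Jak3, which turned with library-size scaling (-0.0133), without WT replicate 3 (-0.0237) and without KO replicate 1 (-0.0093). Ifngr1 was called under all 10 alternatives that kept the 6 libraries and the threshold. With library size alone, Ifngr2 (0.46) and Ifnar1 (0.31) missed the threshold and 1 member was called, and the calls over all genes became 1064 higher and 1201 lower, 47.0% higher against 61.4%. Without a filter on low counts Ifngr2 (0.52) and Ifnar1 (0.37) missed it and 1 member was called. At an FDR under 0.01, Ifngr1 (0.92), Ifngr2 (0.54) and Ifnar1 (0.39) were not called, which left 0 members, 16 higher and 2 lower genes of the lists, and 490 higher and 196 lower genes overall.

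With 1 library left out, log2 fold changes ranged from 0.67 to 1.05 for Ifngr1, 0.44 to 0.71 for Ifngr2, 0.32 to 0.43 for Ifnar1 and -0.02 to 0.14 for Jak3, and the members called from 0 to 2. List genes ranged from 15 to 29 higher and 2 to 9 lower, and all genes from 483 to 1403 higher and 208 to 937 lower. The ratios Jak3 to Jak1 (-0.01 to 0.35) and Tyk2 to Jak1 (-0.36 to 0.12), whose groups overlapped, changed sign. These fits hold fewer samples. With the longest transcript as length, 4 of 8 members kept their place in the order of WT levels.

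Same-numbered libraries had correlations of deviations from their group means of 0.07, -0.01 and -0.19. With 3 libraries per group, such correlations cannot decide whether replicate numbers pair the samples. With the replicate block Ifnar1 missed the threshold (0.39, FDR = 0.0752 in the QLF test), 2 members were called, and 545 genes overall were called lower against 847. None of the WT libraries correlated best with its own number, and of the KO libraries only replicate 1 did. Apart from calls lost or counts moved as given here, the cause of which was not tested, results stayed on their side of the threshold.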
